A study of Mus musculus with 15 samples.

Results

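Eosinophils sorted from the esophagus were compared with eosinophils sorted from the colon of mice at a pre-cancer stage. The comparison used 11 of the 15 libraries in the series, chosen by their tissue label, and covered every gene in the table. Esophagus gave 7 libraries, from mice 1, 2, 3, 5, 6, 7 and 8, and colon gave 4 libraries, from mice 5, 6, 7 and 8. Both tissues of mice 5 to 8 thus came from the same animals, while the esophagus libraries of mice 1 to 3 have no colon partner. Every mouse was C57BL/6 wild type. Each had received 4-nitroquinoline 1-oxide (4-NQO), a carcinogen of the mouth and esophagus, over 8 weeks, followed by its vehicle propylene glycol over another 8 weeks. No untreated mouse and no mouse at another stage stood beside them, so the comparison is between tissues of treated animals. Mice 1, 2, 5 and 6 were F and shared cage 1, and mice 3, 7 and 8 were M and shared cage 2, so sex and cage cannot be told apart. The cells were taken from the lamina propria by immunomagnetic positive selection, and the labels do not name the surface marker used. Total RNA was amplified before library preparation.

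Eosinophils are granulocytes of type 2 immunity that mature in the bone marrow under interleukin 5 and enter tissues along eotaxin gradients. Healthy colon holds a resident population in its lamina propria, whereas healthy esophagus holds few. Mature eosinophils store cationic granule proteins, and tissue eosinophils can display peptides on major histocompatibility complex (MHC) class II molecules to CD4+ T cells. The class II route uses alpha and beta chains that pair, an invariant chain that guards their groove, and loading proteins that exchange the peptide. Its genes are switched on together through a promoter module that ends in a Y box, a CCAAT sequence bound by NF-Y, next to elements read by the RFX complex and the co-activator CIITA.

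The Y box letters were looked up in the promoters of class II genes of different roles. The promoters shown are the 150 bases before the start of H2-Aa, which encodes the alpha chain of I-A, of H2-Eb1, which encodes the beta chain of I-E, and of H2-DMb1, which encodes a chain of the peptide loader H2-M. They are shown as 1 example each of an alpha chain, a beta chain and a loader of the route that Cd74 and H2-Ab1, called below, belong to. None of the 3 was itself called in the comparison of the tissues, and H2-DMb1 did not pass the filter on low counts. Sequences are from RefSeq on GRCm38.p6, written along the gene's own strand from 5′ to 3′, and capitals mark each CCAAT or its reverse complement ATTGG. H2-Aa lies at chr17:34287824-34287973 on the minus strand, H2-Eb1 at chr17:34305717-34305866 on the plus strand and H2-DMb1 at chr17:34153041-34153190 on the plus strand.
H2-Aa: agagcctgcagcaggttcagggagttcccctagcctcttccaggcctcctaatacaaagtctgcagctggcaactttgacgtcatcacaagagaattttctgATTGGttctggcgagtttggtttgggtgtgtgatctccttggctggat
H2-Eb1: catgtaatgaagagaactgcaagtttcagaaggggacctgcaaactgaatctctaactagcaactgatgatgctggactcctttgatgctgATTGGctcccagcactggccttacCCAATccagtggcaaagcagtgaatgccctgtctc
H2-DMb1: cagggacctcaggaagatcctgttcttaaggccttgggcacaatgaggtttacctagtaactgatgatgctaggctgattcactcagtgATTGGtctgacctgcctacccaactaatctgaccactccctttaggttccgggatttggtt
The first base of the ATTGG lies 48 bases before the start in H2-Aa, 59 in H2-Eb1 and 61 in H2-DMb1. H2-Eb1 holds a further CCAAT at 35 bases. Among promoter windows of 250 bases in the same RefSeq table, 11120 of 32851 (33.8%) hold CCAAT or ATTGG, counting both strands as one search. It lies 41 to 90 bases before the start in 3929 of the 32851 windows (12%). Of the 20 windows searched for the class II list, 13 hold it and 7 do not, and its place varies. The search for the class II list left out 1 chromosome by choice, a limit not set on the 32851 windows. No window of Cd74 or H2-Ab1 is among the 20. Relative to the start it lies at -43 in H2-Oa, -57 in H2-Ob, -90 in H2-DMb2, -100 in H2-Eb2 and -198 in 1 of the windows of H2-DMa. A match of these letters is a description of the sequence and not a measured binding site.

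Libraries were shallow, with total counts of 85677 to 371218 in esophagus and 227179 to 612386 in colon. Levels are given in CPM, the depth-scaled counts of edgeR, which here take TMM factors into account. At these depths 3 counts, the limit that a count of 0 allows, equalled 10.56 to 35.99 CPM in esophagus and 6.86 to 17.11 CPM in colon. The esophagus libraries also agreed less with one another. Spearman correlations of raw counts across all 26366 genes of the table, which are not independent, were 0.227 to 0.505 between esophagus libraries. Between colon libraries they were 0.661 to 0.818, and the part of depth in this gap was not tested. Among the colon libraries, that of mouse 8 lay apart from the rest. Of its counts, 0.804% (95% Wilson interval 0.782 to 0.826) fell on the 35 genes of the colon epithelium list, against 0.0603% to 0.0912% in the other colon libraries. Its values are therefore given separately below. Because the samples are bulk libraries, fewer cells of a type and less RNA per cell cannot be told apart.

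As a scale for low levels, 1440 genes for smell and vomeronasal receptors, which are used by sensory neurons, were summed in each library. They took 6.80% to 8.15% of counts in esophagus and 6.54% to 9.90% in colon. The relative level of a gene is its counts per exonic kilobase divided by those of the receptor genes in the same library, so that 1 marks the level of genes that eosinophils are not known to use.

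Esophageal eosinophil libraries differed from colonic ones in few genes, and genes of the class II route led them. Of 10357 genes tested with edgeR's quasi-likelihood test, 7 were higher in esophagus (0.0676%) and 2 were lower (0.0193%) at a Benjamini-Hochberg adjusted p under 0.05. The higher genes were Cd74, H2-Ab1 and H2-Ea of the class II route, Actb and S100a4 of the actin cytoskeleton and its partners, Rn18s, the 18S ribosomal RNA, and Gm15772, a processed pseudogene. Tmem30b, a flippase subunit, and Btbd35f11, a BTB domain gene of a multicopy family, were the lower genes. At an unadjusted p under 0.05, 60 genes were higher (0.579%) and 215 lower (2.08%). This split followed the scaling, since over the tested genes the median log2 fold change was -0.21 under TMM and 0.01 under DESeq2-style size factors, where 111 were higher and 120 lower. Library size alone gave 112 and 131, with a median of -0.03. Fold changes below are those with TMM, to be read against that median.

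**Figure D1:**
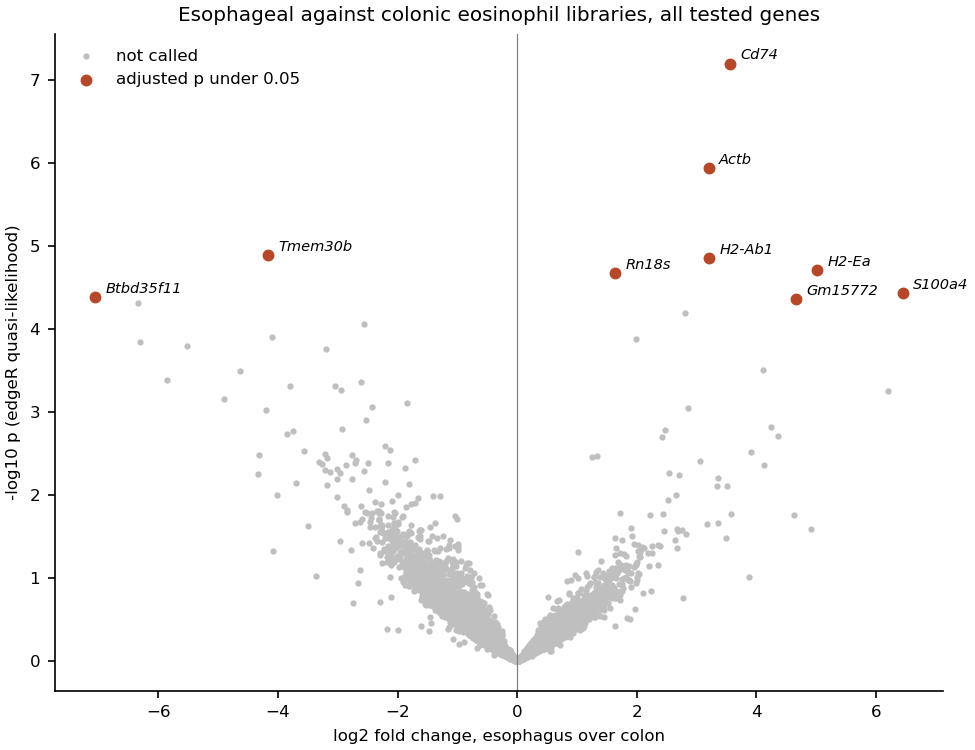
Each point is 1 of the 10357 tested genes, with the log2 fold change of esophagus over colon on the x axis and -log10 of the unadjusted edgeR p on the y axis. The 9 named points are the called genes, of which 7 lie right of 0 and 2 left of it, and Cd74 is the highest.

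The number of calls changed when single libraries were left out. Without the esophagus library of mouse 3 there was 1 higher gene and no lower one, and without those of mice 1, 5 or 7 there were 3, 2 and 3 higher genes. Without the colon library of mouse 5, 6, 7 or 8 there were 17 (0.149%), 22, 18 and 4 (0.0352%) lower genes. Without the colon library of mouse 8 there were also 9 higher genes (0.0792%), and 6 of the 9 calls were shared with the full set. Bone marrow libraries are not in the contrast, yet leaving out that of mouse 5, 6, 7 or 8 gave 12, 14, 15 and 18 lower genes. Higher genes then numbered 10, 12, 14 and 14. With 1 colon or bone marrow library left out, 11267 to 11974 genes passed the filter, against 10357 in the full set. The part of the filter in these counts was not tested. Taking mouse as a fixed block over the 15 libraries left 2 higher and 2 lower genes (0.0193% each), with 1 of the 9 calls shared. Mice 1, 2 and 3 gave only an esophagus library. With a fixed block, here and below, they therefore add nothing to the estimated tissue difference. Using the tissues of mice 5 to 8 alone with the block left 0 and 0, with 39 and 109 genes at an unadjusted p under 0.05 in that edgeR fit. A random mouse term, fitted with limma voom, left 1 higher (0.00966%) and 2 lower genes (0.0193%). The consensus correlation of that block was 0.0227. The same voom fit without the block was not run. Values with a random block, here and below, thus cannot separate the block from the change of test. Fitting only the 11 esophagus and colon libraries gave 12 higher (0.136%) and 4 lower (0.0454%). Tmem30b and Btbd35f11 did not pass the filter in that fit, so its 4 lower genes are other ones. DESeq2 on all 15 gave 15 higher (0.145%) and 0 lower, with 172 lower at an unadjusted p under 0.05. The edgeR counts without esophagus of mouse 2 were 5 (0.0538%) and 1 (0.0108%), and without colon of mouse 5 there were 10 higher genes (0.0879%).

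Cd74 (ENSMUSG00000024610.16), the invariant chain, showed the smallest p. It had 496, 134, 867, 696, 242, 193 and 257 CPM in esophagus of mice 1, 2, 3, 5, 6, 7 and 8, against 12.2, 11.4, 25.2 and 84.1 CPM in colon of mice 5, 6, 7 and 8. Every esophagus library lay above every colon library, and colon of mouse 8 was the nearest. The log2 fold change was 3.56 (SE 0.63, edgeR adjusted p = 0.000650), and without colon of mouse 8 it was 4.51 (adjusted p = 7.59e-05). In relative level, Cd74 stood at 17.5 times the receptor genes in esophagus and at 1.02 times in colon. The call held without any 1 of the 15 libraries, with edgeR adjusted p of 7.59e-05 to 0.0452. Mouse as a fixed block gave 0.197 and as a random block 0.196. Within F mice the log2 fold change was 4.83 and within M mice 2.88.

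H2-Ab1 (ENSMUSG00000073421.7), the beta chain of I-A, also separated the tissues. Its levels in esophagus were 146, 102, 635, 432, 235, 188 and 395 CPM, in the same mouse order, against 34.3, 17.1, 11.4 and 63.7 CPM in colon. The lowest esophagus library was that of mouse 2 and the highest colon library that of mouse 8, and they did not overlap. The log2 fold change was 3.21 (SE 0.72, edgeR adjusted p = 0.0356), with 3.75 (0.0226) without colon of mouse 8, 2.95 within F mice and 3.32 within M mice. Adjusted p was 0.00721 with mouse as a fixed block and 0.196 as a random block. Leaving out esophagus of mouse 3, 5 or 8 ended the call (edgeR adjusted p = 0.208, 0.150 and 0.0592) as did leaving out colon of mouse 5, 6 or 7 (0.0694, 0.0962 and 0.129). Its relative level was 8.12 in esophagus and 0.620 in colon.

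The partner chain H2-Aa (ENSMUSG00000036594.16) had 438, 17.6, 504, 924, 211, 85.3 and 119 CPM in esophagus and 39.2, 34.2, 41.2 and 66.3 CPM in colon. Esophagus of mouse 2 lay below all colon libraries and the other 6 lay above them. The log2 fold change of 2.81 (SE 0.68) missed the threshold with an edgeR adjusted p of 0.0602, which was 0.0239 when only the 11 esophagus and colon libraries were fitted and 0.101 without colon of mouse 8. Without esophagus of mouse 2 it was 0.0189. It was 3.25 on the log2 scale within F and 1.99 within M mice.

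The I-E genes were less even. H2-Eb1 (ENSMUSG00000060586.12), the beta chain, had 0 to 403 CPM in esophagus with a median of 85.3, against 26.9, 28.5, 11.4 and 58.6 CPM in colon. The groups overlapped, since esophagus of mouse 5 held no count, and the difference of 1.95 (SE 0.94) did not pass (edgeR unadjusted p = 0.0386, adjusted p = 1.0). H2-Ea (ENSMUSG00000036322.12) is the alpha chain gene, which C57BL/6 mice are known to carry with a deletion at its start, so that they make no I-E molecule. GENCODE M21 lists it as H2-Ea-ps, a polymorphic pseudogene. Its counts were nevertheless 19, 0, 30, 59, 30, 31 and 2 in esophagus, against 0, 0, 4 and 5 in colon of mice 5, 6, 7 and 8. In CPM this was 218 ± 240 (SD, n = 7) in esophagus and 5.47 ± 6.49 (n = 4) in colon, with esophagus of mice 2 and 8 reaching into the colon range. The log2 difference was 5.02 (SE 1.11, edgeR adjusted p = 0.0360), or 5.62 (0.0156) without colon of mouse 8. Without esophagus of mouse 1, 3, 5, 6 or 7 the call was lost (0.261, 0.406, 0.309, 0.0701 and 0.0897). With mouse as a fixed block adjusted p was 0.270, and as a random block 0.299. Within F mice the log2 fold change was 8.63 and within M mice 3.72. How reads shared between H2-Ea and related genes were counted is not given in the sources used here, and whether these mice carry the C57BL/6 form of the gene was not tested, so what its counts measure is uncertain.

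**Figure D2:**
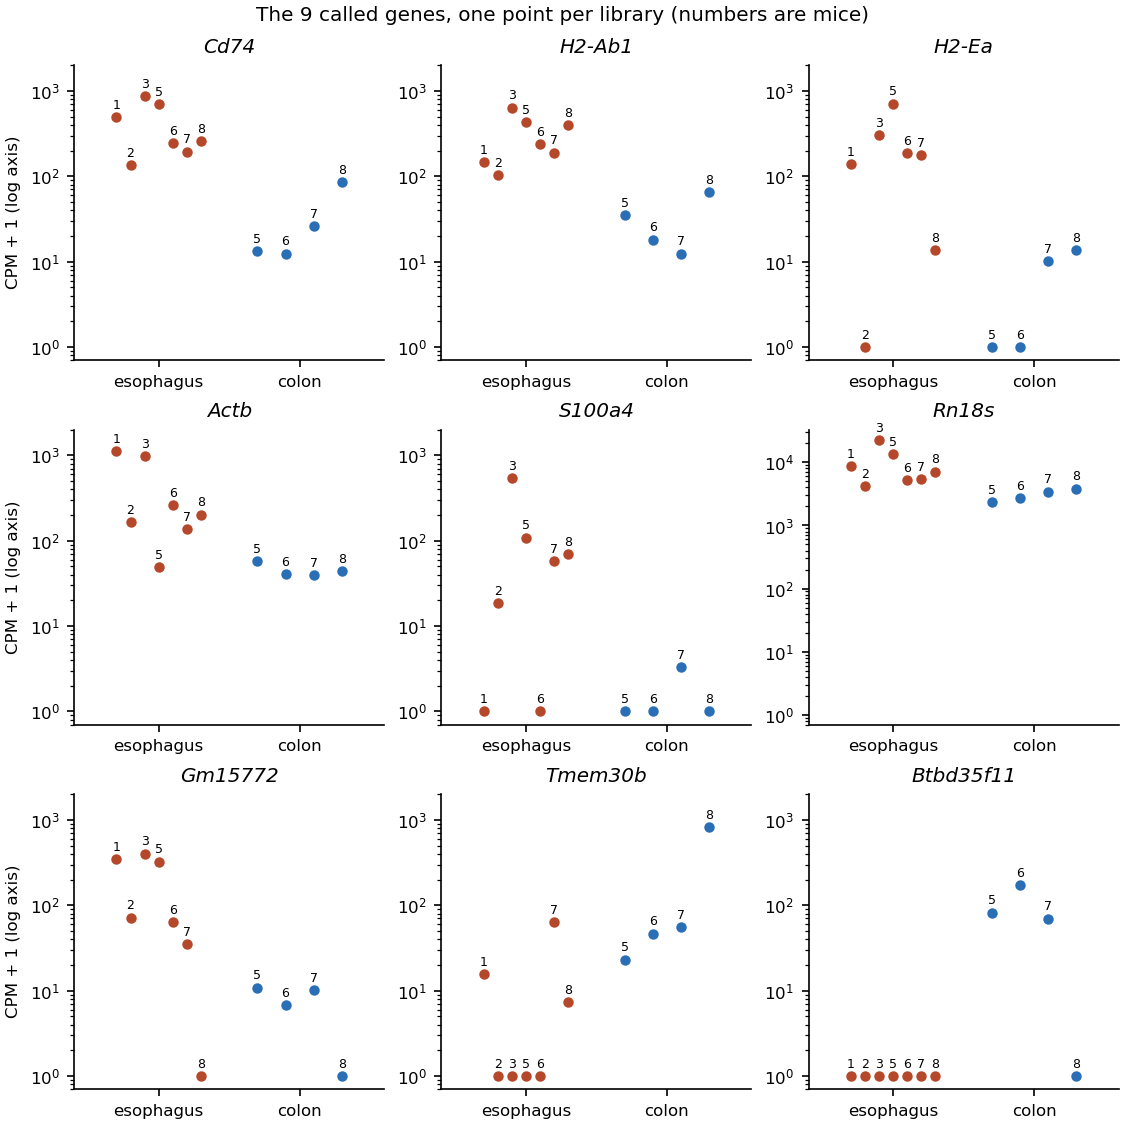
Each panel shows 1 called gene, with CPM + 1 on a log axis and 1 point per library, esophagus left and colon right, and numbers naming the mouse. Cd74, H2-Ab1 and Rn18s separate the tissues fully, Actb overlaps through esophagus of mouse 5, and the colon points of Tmem30b rise to mouse 8 while Btbd35f11 is at 0 there.

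Among the regulators and loaders of the class II list none was called. The list has 22 genes, H2-Ea not among them, of which 10 passed the filter on low counts. In that list 2 were called higher and none lower, beside 0.0676% higher and 0.0193% lower of all 10357 tested genes. The median log2 fold change was 0.27 beside -0.21 over all tested genes. Ciita, the co-activator, had 53.9 ± 54.3 CPM in esophagus and 99.3 ± 17.1 CPM in colon (SD, n = 7 and 4), a log2 fold change of -0.83 (SE 0.85) that did not pass. Rfx5, a subunit of RFX, had 39.1 ± 34.5 CPM in esophagus and 41.9 ± 13.2 CPM in colon. The loaders H2-DMa and H2-DMb1 did not pass the filter, with 22.8 ± 46.3 and 31.1 ± 47.0 CPM in esophagus against 23.2 ± 13.4 and 8.60 ± 6.71 CPM in colon, so no test compares them with the chains. Ifi30 and Lgmn, which process antigen, had 0 counts in all 7 esophagus libraries. A count of 0 there still allows 10.56 to 35.99 CPM, so their absence was not shown.

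Summed over the list, class II genes took 0.0989% to 0.326% of counts in esophagus and 0.0563% to 0.0732% in colon, with no overlap. The relative level of the whole list was 0.906 to 3.08 in esophagus, with a median of 1.15, and 0.395 to 0.776 in colon, with a median of 0.507. Both sums include Cd74, H2-Ab1, H2-Aa and H2-Eb1 and so restate those genes. The remaining members were not summed apart, so a shift of the whole list is not shown. Esophagus of mice 3 and 5 held the largest shares, at 0.326% and 0.236%.

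Markers of other antigen-presenting cells were measured beside these genes, and their part in the class II difference was not tested. The 18 macrophage genes took 0.0458% to 0.0899% of counts in esophagus and 0.0299% to 0.0421% in colon, and none of them was at 0 in either tissue as a whole. Their relative level was 0.591 to 1.24 in esophagus and 0.307 to 0.610 in colon. Lyz2, lysozyme of macrophages and other myeloid cells, had 14.6 to 300 CPM in esophagus with a median of 113, against 29.4, 5.70, 13.7 and 28.0 CPM in colon (log2 fold change 2.52, SE 0.99, edgeR unadjusted p = 0.0114, adjusted p = 1.0). Only esophagus of mouse 1 fell into the colon range. Csf1r, the receptor that maintains macrophages, had 57.6 ± 35.7 CPM in esophagus and 37.5 ± 18.4 CPM in colon. Of the 6 macrophage genes tested none was called, and only 3 had a positive log2 fold change, with a median of 0.05.

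The 13 dendritic cell genes took 0.00117% to 0.0676% of counts in esophagus and 0.0297% to 0.0421% in colon, with esophagus of mouse 3 lowest. Xcr1, a chemokine receptor of cross-presenting dendritic cells, had 92.7 ± 157 CPM in esophagus and 88.8 ± 24.8 CPM in colon. The B and plasma cell genes, 16 in the table, took 0.0148% to 0.0690% in esophagus and 0.0385% to 0.0471% in colon. Ms4a1, which encodes CD20, had 122 ± 129 CPM in esophagus and 154 ± 33.1 CPM in colon. In both lists the esophagus range enclosed the colon range, and no member was at 0 in either tissue as a whole.

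**Figure D3:**
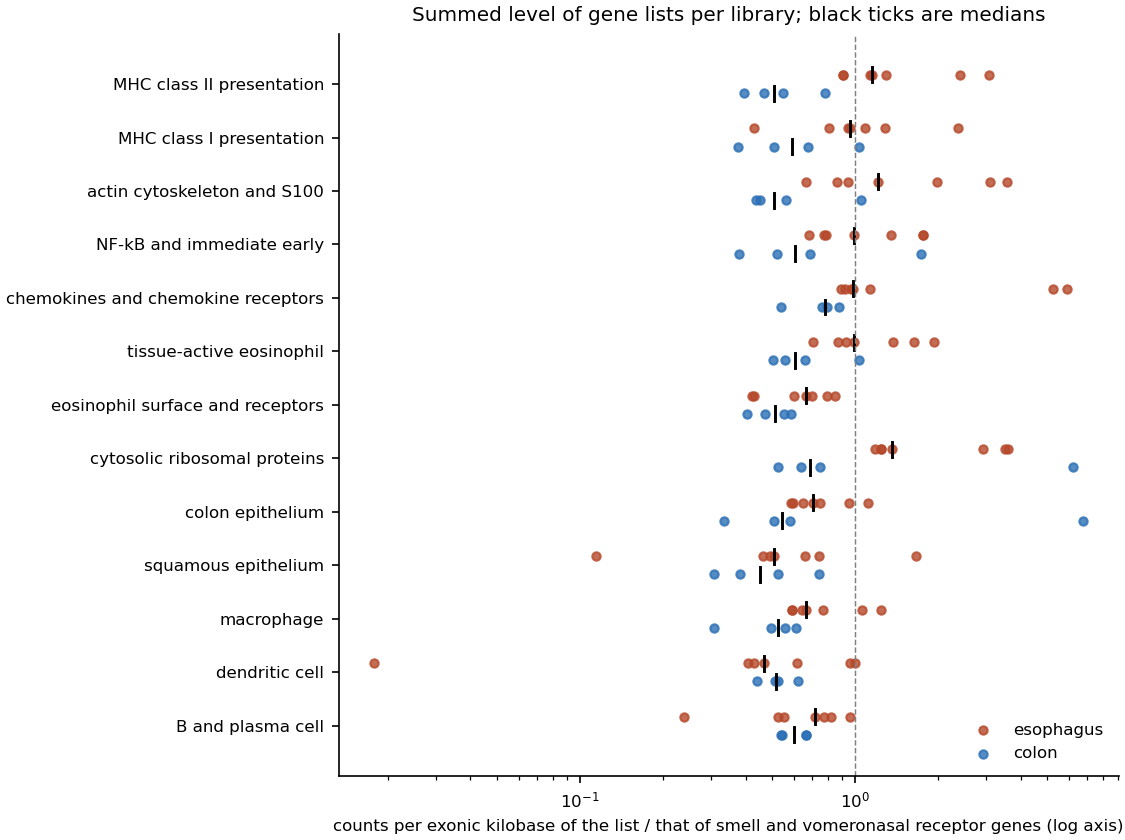
The x axis, on a log scale, is the summed counts per exonic kilobase of each list divided by that of the smell and vomeronasal receptor genes, 1 point per library, with esophagus above colon in each row and black ticks at the medians. Class II genes reach 0.906 to 3.08 in esophagus and 0.395 to 0.776 in colon, a sum that includes the called Cd74 and H2-Ab1. The colon epithelium list has 1 colon library, that of mouse 8, at 6.76.

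Class I genes, which show cytosolic peptides to CD8+ T cells, were not called. Of 17 genes 9 were tested, with a median log2 fold change of 0.19. H2-Q4, a nonclassical class I gene, had 0 to 494 CPM in esophagus with a median of 148, against 51.4, 68.4, 38.9 and 63.7 CPM in colon (1.63, SE 0.76, edgeR unadjusted p = 0.0328, adjusted p = 1.0). Esophagus of mouse 5 held no count of it. H2-K1, a classical heavy chain, had 152 ± 214 CPM in esophagus and 46.6 ± 18.6 CPM in colon (1.65, SE 0.84). Tap1, a peptide transporter subunit, had 163 ± 174 CPM in esophagus and 58.3 ± 35.2 CPM in colon (1.44, SE 0.84).

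Actin and some of its partners formed the other group with calls. Actb (ENSMUSG00000029580.15), cytoplasmic beta-actin, had 1131, 165, 988, 48.0, 260, 136 and 201 CPM in esophagus, against 56.3, 39.9, 38.9 and 43.3 CPM in colon. Esophagus of mouse 5 lay within the colon range and the other 6 lay above it. The log2 fold change was 3.20 (SE 0.62, edgeR adjusted p = 0.00597), 3.13 (0.0140) without colon of mouse 8, 2.89 within F and 3.27 within M mice. Without esophagus of mouse 1 or 3, the libraries with the highest values, adjusted p was 0.0843 and 0.199. It was 0.340 with mouse as a fixed block and 0.207 as a random block.

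S100a4 (ENSMUSG00000001020.9), a calcium-binding protein of motile cells, had 0, 5, 54, 9, 0, 10 and 11 counts in esophagus and 1 count in colon, in mouse 7. Mouse 3 thus held most of the esophagus counts, and mice 1 and 6 held none. The ratio of scaled pooled counts was 114 (exact 95% interval 20 to 4566, counting error only), and edgeR's adjusted p was 0.0498. Without colon of mouse 5, 6 or 8, or esophagus of mouse 1, S100a4 lost the call (0.0876, 0.0577, 0.130 and 0.0709), and without esophagus of mouse 2, 3, 5, 7 or 8 it did not pass the filter. With mouse as a fixed block its adjusted p was 0.340, and as a random block 0.219. Within M mice its log2 fold change was 6.92, and within F mice it did not pass the filter.

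Tmsb4x (ENSMUSG00000049775.17), which binds actin monomers, separated the tissues without passing the test. It had 1277, 116, 272, 600, 273, 210 and 94.2 CPM in esophagus and 51.4, 22.8, 34.3 and 66.3 CPM in colon. Its log2 fold change was 3.17 (SE 1.21, edgeR adjusted p = 1.0), and in the fit of the 11 libraries alone its adjusted p was 0.000423. It was among 6 tested genes (0.0579%) with every esophagus library above every colon library, and 100 genes (0.966%) had every esophagus library below.

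Tmsb10 and S100a9 had an unadjusted p under 0.05 without a call. Tmsb10, a related monomer binder, had 60.5 ± 72.2 CPM in esophagus and 5.20 ± 5.01 CPM in colon (3.51, SE 1.3, edgeR unadjusted p = 0.00779). S100a9, a subunit of calprotectin, had 46.0 ± 43.3 CPM in esophagus and 3.64 ± 2.44 CPM in colon (3.36, SE 1.45, edgeR unadjusted p = 0.0218). Actg1, cytoplasmic gamma-actin, had 186 ± 187 CPM in esophagus and 143 ± 175 CPM in colon (0.34, SE 0.71), with 405 CPM in colon of mouse 8 and 45.6 to 61.7 CPM in the other colon libraries. Of the 35 genes in the list 20 were tested, and 17 had a positive log2 fold change. In the list 2 were called higher and none lower, beside 0.0676% higher and 0.0193% lower of all 10357 tested genes. The list's median was 0.80 beside -0.21 over all tested genes, of which 37.0% had a positive fold change. Its share of counts was 0.294% ± 0.184 in esophagus and 0.111% ± 0.0311 in colon (SD, n = 7 and 4), a difference with p = 0.0606 in an exact two-sided permutation test over 330 splits and 0.141 after adjustment over 7 measures of library make-up.

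Cytokine and NF-kB target genes had higher means in esophagus in several members, none called by edgeR in the fit of all 15 libraries. Cxcl2, a chemokine that draws neutrophils, had 452, 21.1, 252, 84.0, 167, 114 and 220 CPM in esophagus, against 19.6, 28.5, 22.9 and 30.6 CPM in colon. Esophagus of mouse 2 fell within the colon range and the other 6 lay above it. Its difference was 2.86 on the log2 scale (SE 0.84, edgeR adjusted p = 0.316), and DESeq2 on the same libraries called it (adjusted p = 0.00597).

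Il1b, an inflammatory cytokine, had 17.1 to 252 CPM in esophagus with a median of 107, against 31.8, 51.3, 13.7 and 7.64 CPM in colon (2.22, SE 0.92, edgeR adjusted p = 1.0). Nfkbia, the inhibitor of NF-kB that NF-kB itself induces, had 0 to 867 CPM in esophagus with a median of 56.5, against 2.45, 28.5, 4.57 and 7.64 CPM in colon (4.25, SE 1.25, edgeR adjusted p = 0.488). Its spread in esophagus covered no count in mice 1 and 6 and 867 CPM in mouse 3. In the fit of the 11 esophagus and colon libraries Nfkbia was called (edgeR adjusted p = 0.0384), as it was without colon of mouse 6 (0.0276) and without bone marrow of mouse 6, 7 or 8 (0.0366, 0.0322 and 0.0314). The difference was 2.97 (edgeR adjusted p = 1.0) when esophagus of mouse 3 was left out. Zfp36, which destabilizes cytokine messages, had 148 ± 72.0 CPM in esophagus and 46.2 ± 27.0 CPM in colon (1.65, SE 0.81, edgeR adjusted p = 1.0).

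Fos and Dusp1, immediate early genes, were highest among colon libraries in that of mouse 8. Fos, a subunit of AP-1, had 0 to 143 CPM in esophagus with a median of 80.6, against 22, 45.6, 16 and 1055 CPM in colon, the last in mouse 8. Dusp1, a phosphatase of MAP kinases, had 209 ± 388 CPM in esophagus (SD, n = 7), against 418 CPM in colon of mouse 8 and 22 to 45.6 CPM in the other colon libraries. In the list of NF-kB and immediate early genes 20 of 33 were tested and none called, with a median log2 fold change of 0.59. The tissue-active eosinophil list, 16 of 24 tested and none called, had a median of 0.35, and the chemokine list, 10 of 27 tested and none called, 0.67.

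The defining genes of eosinophils did not differ by a call between the tissues. Ccr3, the eotaxin receptor, had 0, 73.9, 111, 180, 99.1, 131 and 113 CPM in esophagus and 41.6, 85.5, 64.0 and 79.0 CPM in colon. In all 4 mice with both tissues esophagus was the higher one, but esophagus of mouse 1 held no count, and the log2 fold change of 0.57 (SE 0.88) did not pass (edgeR adjusted p = 1.0). The relative level of Ccr3 was 1.97 in esophagus and 1.02 in colon, with 0.620 to 1.27 over the colon libraries.

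Siglecf, the lectin commonly used to sort mouse eosinophils, had a relative level of 0.412 in esophagus and 0.349 in colon, below the receptor genes in both tissues. Il5ra, a chain of the interleukin 5 receptor, stood at 1.42 in esophagus and 0.559 in colon. Epx, eosinophil peroxidase, had 0 counts in every esophagus library and 0.185 of the receptor level in colon. Prg3, a major basic protein homolog of granules, had 12 and 9 counts in esophagus of mice 6 and 7, 2 counts in colon of mouse 5, and 0 in the other 8 libraries. The whole surface list, 23 genes, took 0.0560% to 0.114% of counts in esophagus and 0.0642% to 0.0790% in colon, and its relative level was 0.422 to 0.849 in esophagus and 0.406 to 0.583 in colon. By these markers the labelled cell type stood at or below the level of the receptor genes in colon, as group means. In esophagus Siglecf, Epx and the surface list stood below that level, and Ccr3 and Il5ra above it, at 1.97 and 1.42. The fibroblast list also lay below 1, with medians of 0.481 in esophagus and 0.462 in colon.

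Itgam, which encodes the integrin CD11b of granulocytes and macrophages, had 80.3, 52.8, 232, 120, 92.9, 39.8 and 75.3 CPM in esophagus, against 93.1, 22.8, 22.9 and 20.4 CPM in colon. Colon of mouse 5 lay among the esophagus values and the other 3 lay below them. A difference of 1.25 on the log2 scale (SE 0.42) did not pass (edgeR adjusted p = 0.762), and without colon of mouse 5 it was 2.06 with an adjusted p of 0.0181. Il1rl1, the interleukin 33 receptor, had 69.0 ± 63.7 CPM in esophagus and 78.6 ± 9.97 CPM in colon, and Itga4, an integrin of tissue entry, 173 ± 134 and 137 ± 19.4 CPM.

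**Figure D4:**
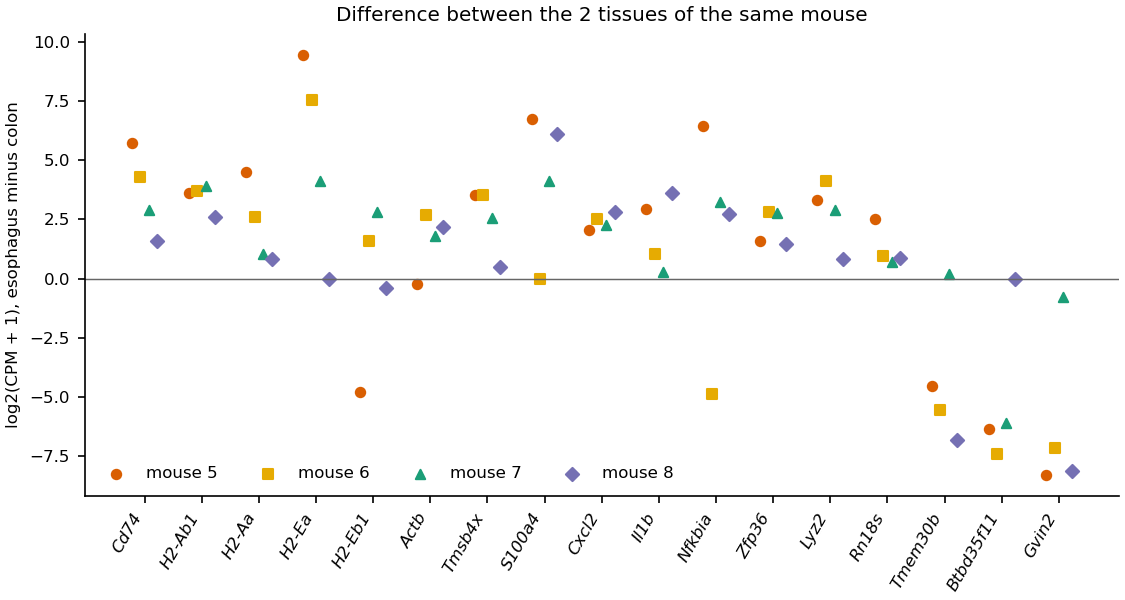
The y axis is the difference in log2(CPM + 1), esophagus minus colon of the same mouse, for mice 5 to 8, with 1 marker per mouse and genes along the x axis. Cd74, H2-Ab1, H2-Aa, Tmsb4x, Cxcl2, Il1b, Zfp36, Lyz2 and Rn18s lie above 0 in all 4 mice, Gvin2 lies below 0 in all 4, and the other genes change side or touch 0 in at least 1 mouse.

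Within the mice that gave both tissues, Cd74, H2-Ab1 and H2-Aa were higher in esophagus in every one, and H2-Eb1 was not. The differences in log2(CPM + 1) of Cd74 were 5.72, 4.29, 2.89 and 1.6 in mice 5, 6, 7 and 8. Those of H2-Ab1 were 3.62, 3.71, 3.92 and 2.62, and those of H2-Aa were 4.52, 2.59, 1.03 and 0.84. H2-Eb1 gave -4.80, 1.57, 2.80 and -0.41. Over all tested genes, 268 (2.59%) were higher in esophagus in all 4 mice and 1172 (11.3%) were lower in all 4.

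Rn18s (ENSMUSG00000119584.1) was higher in esophagus in all 4 mice with both tissues. How reads of this multi-copy gene were counted is not stated, so its level is uncertain. It had 8653, 4225, 22529, 13435, 5255, 5470 and 7074 CPM in esophagus and 2322, 2691, 3411 and 3830 CPM in colon, with no overlap. The difference was 1.64 on the log2 scale (SE 0.37, edgeR adjusted p = 0.0360), 1.71 (0.00478) without colon of mouse 8, 1.53 within F and 1.57 within M mice. The call was lost without any single esophagus library (0.206 to 0.806 for mice 1, 2, 3, 5, 6, 7 and 8) and without colon of mouse 5, 6 or 7 (0.186, 0.214 and 0.105). Mouse as a fixed block gave 0.789 and as a random block 1.12e-08. As a share of all counts Rn18s reached 0.921% ± 0.811 in esophagus and 0.226% ± 0.0384 in colon (SD, n = 7 and 4), with p = 0.0879 in an exact two-sided permutation test and 0.154 after adjustment over 7 measures.

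Gm15772 (ENSMUSG00000062353.7), a processed pseudogene whose reads may be shared with a parent gene, had 343, 70.4, 403, 324, 62.0, 34.1 and 0 CPM in esophagus, against 9.80, 5.70, 9.15 and 0 CPM in colon. Esophagus of mouse 8 held no count and the other 6 lay above all colon libraries. The log2 fold change was 4.67 (SE 1.11, edgeR adjusted p = 0.0498), or 4.38 within F mice, and it did not pass the filter within M mice. The call was lost without any single colon library (0.0705, 0.0859, 0.0770 and 0.238 for mice 5, 6, 7 and 8) and without esophagus of mouse 1, 2, 3, 5, 6 or 7 (0.261, 0.0551, 0.415, 0.283, 0.0701 and 0.0594). With mouse as a fixed block it was at 0.532 and as a random block at 0.223.

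Colon of mouse 8 was the extreme colon library for both genes called lower in esophagus. Tmem30b (ENSMUSG00000034435.7), a subunit of lipid flippases found in epithelia, had 14.6, 0, 0, 0, 0, 62.5 and 6.28 CPM in esophagus, against 22, 45.6, 54.9 and 821 CPM in colon. Colon of mouse 8 held 322 of the 363 colon counts, and esophagus of mouse 7 lay above the other 3 colon libraries. Its log2 fold change was -4.16 (SE 0.92, edgeR adjusted p = 0.0356), and without colon of mouse 8 it did not pass the filter. Leaving out esophagus of mouse 1, 3, 5, 6 or 8 ended the Tmem30b call (0.261, 0.406, 0.257, 0.0701 and 0.0638), and it did not pass the filter without that of mouse 2 or 7. With mouse as a fixed block adjusted p was 0.789 and as a random block 0.204. Within M mice the log2 fold change was -4.20, and within F mice it did not pass the filter.

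Btbd35f11 (ENSMUSG00000094558.2) had 0 counts in all 7 esophagus libraries and 33, 30, 30 and 0 counts in colon of mice 5, 6, 7 and 8. Against a floor of 3 counts in each esophagus library it was at least 3.66-fold lower (edgeR adjusted p = 0.0498, and 0.0156 without colon of mouse 8). The call was lost without any single esophagus library (0.261, 0.153, 0.406, 0.276, 0.0966, 0.140 and 0.0824 for mice 1, 2, 3, 5, 6, 7 and 8) and without colon of mouse 6 (0.117). With mouse as a fixed block it was at 0.509 and as a random block at 0.235. Within F mice its edgeR adjusted p was 1.0, and within M mice it did not pass the filter.

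Among the genes whose 7 esophagus libraries all lay below the 4 colon libraries without a call, the smallest p belonged to Gm8050, with 38.7 CPM in esophagus of mouse 2 and 0 in the other 6, against 56.3, 45.6, 50.3 and 51.0 CPM in colon (log2 fold change -2.57, SE 0.63, edgeR adjusted p = 0.0748). Gvin2, of the family of very large interferon-inducible GTPases whose members resemble each other, had counts in esophagus of mouse 7 alone, at 79.6 CPM, against 316, 143, 139 and 283 CPM in colon (-4.10, SE 1.02, edgeR adjusted p = 0.0959). In the fit of the 11 libraries alone Gvin2 was called (adjusted p = 0.0278). Pik3r5, a regulatory subunit of the phosphoinositide 3-kinase of leukocytes, had 2 counts in esophagus, both in mouse 2, and 80 in colon. The ratio of scaled pooled counts, esophagus over colon, was 0.0321 (exact 95% interval 0.00382 to 0.120, counting error only).

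The remaining genes in that rule were U2af1, a splicing factor, Mia3, of collagen export, Rpap1, an RNA polymerase II partner, Slc12a5, a chloride transporter of neurons, Amt, of glycine cleavage, Zfp598, of ribosome quality control, and AA465934, a noncoding transcript. Their means were 0 to 5.17 CPM in esophagus and 10.9 to 62.2 CPM in colon. Amt had 2 counts and Zfp598 had 1 in esophagus, so their levels rest on few counts. AA465934 had 17.1, 17.1, 6.86 and 2.55 CPM in colon. These values did not clear the 10.56 to 35.99 CPM that 0 counts allow in esophagus. On the higher side the rule also gave Zrsr1, a splicing factor gene, with 757 ± 1045 CPM in esophagus and 142 ± 62.1 CPM in colon (2.42, SE 0.69, edgeR adjusted p = 0.547).

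Colon of mouse 8 carried the extremes of epithelial, mitochondrial and ribosomal protein genes. Pigr, the epithelial receptor that exports IgA, had 0 to 241 CPM in esophagus, against 5433 CPM in colon of mouse 8 and 299, 17.1 and 64.0 CPM in colon of mice 5, 6 and 7. Muc3, an intestinal membrane mucin, had 105 ± 77.4 CPM in esophagus, against 489 CPM in colon of mouse 8 and 57.0 to 110 CPM in the other colon libraries. Of the 35 colon epithelium genes, Cldn7, Phgr1 and Reg3b had 0 counts in every esophagus library, 8 were tested, and none was called. The median log2 fold change of those tested was -0.66.

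Mitochondrially encoded genes took 3.87% of counts in esophagus of mouse 1, 2.84% in that of mouse 3 and 0.301% to 0.441% in the other 5. In colon they took 7.52% in mouse 8 and 0.298% to 1.0% in the other 3. COX3, a subunit of cytochrome oxidase, had 1167 and 192 CPM in esophagus of mice 1 and 6 and 0 in the other 5, against 478, 1266, 1070 and 10448 CPM in colon (log2 fold change -4.09, SE 1.85, edgeR unadjusted p = 0.0468, adjusted p = 1.0). COX1, another subunit, showed a smaller difference of the same sign (-0.73, SE 1.10). It had 678 to 15896 CPM in esophagus, with a median of 932, against 701, 2372, 631 and 19927 CPM in colon. None of the 12 tested members of the list had a positive log2 fold change or a call. Their median was -1.73 beside -0.21 over all tested genes, with colon of mouse 8 included. Rps9, a small-subunit ribosomal protein, had 77.5 ± 61.4 CPM in esophagus, against 1809 CPM in colon of mouse 8 and 17.1 to 41.6 CPM in the other colon libraries. Its log2 fold change was -2.60 (SE 1.12) over all libraries and 1.36 without colon of mouse 8, so its direction rested on that library.

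**Figure D5:**
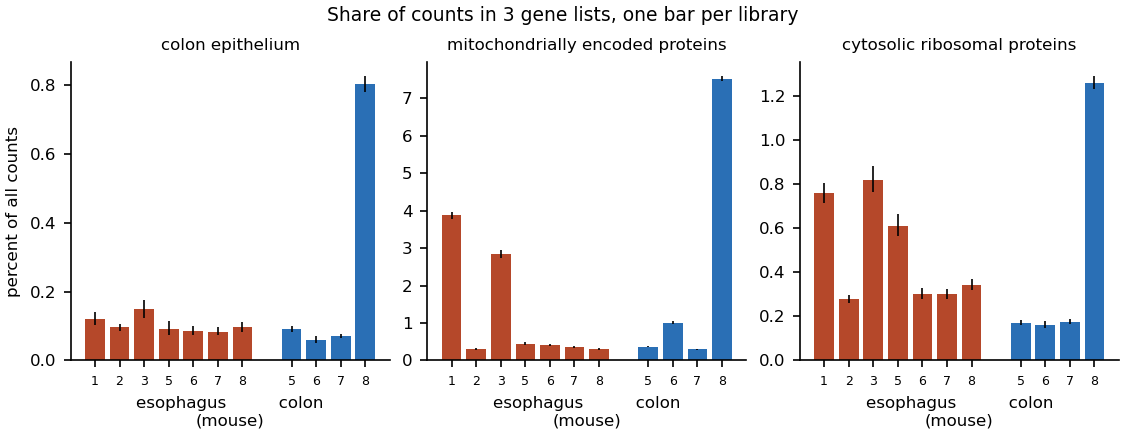
Bars give the percent of all counts that fell on 3 gene lists in each library, esophagus left and colon right with mice numbered, and black bars are 95% Wilson intervals, which cover counting error only. Esophagus of mice 1 and 3 stand above the other esophagus libraries for mitochondrial genes, at 3.87% and 2.84%, and colon of mouse 8 reaches 0.804%, 7.52% and 1.26% in the 3 panels.

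Of 7 measures of library make-up, 2 differed between the tissues after adjustment. Total counts averaged 187600 ± 98140 in esophagus and 478700 ± 172000 in colon (SD, n = 7 and 4; exact two-sided permutation p = 0.00606, adjusted p = 0.0424). With every library thinned to 85677 counts, 12010 ± 3778 genes were detected in esophagus and 19000 ± 1160 in colon (exact two-sided permutation p = 0.0121, adjusted p = 0.0424). Both were lower in esophagus in all 4 mice with both tissues, where the smallest p that 16 sign flips allow is 0.125. The adjusted p of each was 0.0667 without esophagus of mouse 5, 0.0583 without any 1 colon library, 0.0333 without esophagus of mouse 2 and 0.05 without any other esophagus library. Both calls were thus lost in most such sets. Fewer libraries allow fewer splits, which raises the smallest p, so a lost call does not by itself show the weight of 1 library. Both differences kept their sign, at -7827 to -6151 genes detected and -375000 to -246600 total counts. Depth and detection thus differed between the groups behind every comparison above, and their part in those differences was not tested. The shares of mitochondrially encoded, ribosomal protein and the 100 most counted genes gave adjusted p of 0.632, 0.855 and 0.700 in the same exact permutation test.

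The other lists held no call. The type I interferon list, 13 of 24 tested, had a median log2 fold change of -0.24, and the list of transforming growth factor beta and matrix remodelling, 14 of 21 tested, -0.46. The hypoxia and glycolysis list, 18 of 24 tested, had a median of 0.60, and in it Gapdh, a glycolytic enzyme, had 12 to 810 CPM in esophagus with a median of 107, against 22, 22.8, 29.7 and 107 CPM in colon (2.47, SE 0.76, edgeR adjusted p = 0.498). Reads of Gapdh may be shared with its many pseudogenes. Cytosolic ribosomal protein genes, 47 of 79 tested, had a median of -0.05, and the apoptosis list, 7 of 20 tested, -0.10. The granule protein list had 1 tested gene of 11, and the others did not pass the filter at this depth. The squamous epithelium list took 0.0124% to 0.186% of counts in esophagus and 0.0484% to 0.0771% in colon, with Ly6d, a squamous surface gene, at 1328 CPM in esophagus of mouse 1 and 0 in the other 6 esophagus libraries.

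Whether the tissue difference itself differed between F mice of cage 1 and M mice of cage 2 was tested in the 11 libraries. Of 8820 genes, 3 were called (0.034%), Fth1, Rps9 and Trpm7, and 118 had an unadjusted p under 0.05. In each of the 3 the M colon mean rested on mouse 8. Fth1, the ferritin heavy chain, had 788, 334, 804 and 384 CPM in esophagus of F mice and 696, 392 and 257 CPM in esophagus of M mice, against 63.7 and 91.2 CPM in colon of F mice and 50.3 and 2123 CPM in colon of M mice. Without colon of mouse 8, Fth1 was itself called higher in esophagus (log2 fold change 2.89, SE 0.63, edgeR adjusted p = 0.0140). With a stricter filter, or with library size as the only scaling, no interaction gene was called in the same edgeR test.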

How the data were processed

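The authors deposited a table of raw counts, 1 column per library, with gene symbol and Ensembl identifier for 26366 genes. Every value is a whole number. Per the submitters' processing notes, limma 3.50.3 was used, with no role given. For the aligner, counting tool, genome build and annotation, nothing is given in the sources used here. GENCODE M21 was used for gene class and exonic length, with 26299 genes (99.75%) matched by stable identifier, and 32 symbols name more than 1 row.

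Counts were tested in R 4.3.3 with edgeR 4.0.16 (quasi-likelihood test, robust, TMM scaling, filterByExpr with minimum count 10 and minimum total 15) on all 15 libraries, with tissue as the only term, and the contrast was esophagus minus colon. The fit had 12 residual degrees of freedom and a common biological coefficient of variation of 0.817. A call is a Benjamini-Hochberg adjusted p under 0.05 over 10357 genes. The 4 bone marrow libraries entered the scaling, the filter on low counts and the shared spread, but not the contrast. DESeq2 1.42.0 and limma 3.58.1 served as alternatives, and single values were tested by exact permutation in Python 3.11.15 with scipy 1.17.1. The steps were tested on simulated data. Intervals (95%) and floors (3 counts) hold counting error alone, because amplified reads do not each stand for a molecule. The within-mouse differences use a pseudocount of 1 CPM.

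By the labels, libraries with the same mouse number come from the same animal and form pairs. Their deviations from the tissue means over the tested genes correlated at 0.00376 to 0.029 in the 4 pairs, against -0.0417 to 0.0553 in 24 pairs of different mice. 

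Genes, lists and tests were chosen with earlier results of these data known. Of 34 lists with 692 members, 22 members were not matched in the table. Named genes were every called gene, up to 10 uncalled genes in each direction with no overlap between the tissues and the smallest p, list members with an unadjusted p under 0.05, the most abundant members of each list, and the defining eosinophil genes Siglecf, Ccr3, Il5ra, Epx, Prg2 and Il1rl1. From the abundant members a selection is printed, and a few genes are not reported here.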

Additional observations from a re-analysis of the deposited data

Results flagged for a closer look

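In 52 of 152 sets of values, a set being 1 gene or share in 1 tissue, a single library lay far from the others, judged by its gap to the nearest library divided by the whole range (Dixon's 95% critical value, 0.568 for 7 libraries and 0.829 for 4). Chance alone marks about 1 in 20 such sets where values are normally distributed, which CPM with many 0 values are not, so the number of sets cannot be read against that rate. Colon of mouse 8 was the distant library in 20 sets, esophagus of mouse 1 in 9 and esophagus of mouse 3 in 7. The cause was not tested.

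In esophagus, mouse 1 was the highest library for Zrsr1 (ratio 0.843), Tmsb4x (0.572), Cd63 (0.836), Dusp1 (0.874), COX3 (0.835), ND5 (0.813), ND4 (0.574), Ly6d (1.0) and Des (0.759). Zrsr1 reached 3101 CPM there. Mouse 3 was highest for S100a4 (0.802), Amt (0.651), H2-K1 (0.675), Itgam (0.583), Nfkbia (0.654), COX1 (0.727) and the Rn18s share of counts (0.591), which was 2.61%. Mouse 5 was highest for H2-Ea (0.573), Zfp598 (1.0), Lgals3 (0.683) and Lyz2 (0.627), and mouse 2 for Gm8050 (1.0) and Pik3r5 (1.0). Mouse 7 was highest for Tmem30b (0.767) and Gvin2 (1.0), mouse 6 for Xcr1 (0.801) and Prg2 (1.0), and mouse 8 for U2af1 (0.774).

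In colon, mouse 8 was highest for Tmem30b (0.959), Lgals3 (0.972), Dusp1 (0.94), Fos (0.972), Gapdh (0.91), COX3 (0.921), COX1 (0.91), ND5 (0.87), ND4 (0.906) and Actg1 (0.955). The same library was highest for Rpl8 (0.849), Rps9 (0.986), Rps24 (0.901), Rpl13 (0.948), Pigr (0.948) and Muc3 (0.878), and for the shares of mitochondrially encoded genes (0.902), ribosomal protein genes (0.986), actin list genes (0.851) and the 100 most counted genes (0.862). The last share was 14.44% there. Mouse 5 was highest for Itgam (0.966) and Prg3 (1.0), mouse 7 for S100a4 (1.0) and Prg2 (1.0), each on 1 count, and mouse 6 was lowest for S100a9 (0.897), at 0 counts.

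The tissue difference differed between sex or cage groups in 3 genes by edgeR's interaction test. The difference in log2 fold change, M minus F, was -4.16 for Fth1, -6.21 for Rps9 and -4.47 for Trpm7, an ion channel with a kinase domain. Trpm7 had 956 CPM in colon of M mice on average, with 1800 CPM in mouse 8 and 110 CPM in mouse 7.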

How the results depend on the processing

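The main counts were 7 genes higher and 2 lower in esophagus. DESeq2-style size factors gave 8 and 1, library size alone 8 and 2, and TMMwsp 6 and 3. Without a filter there were 15 higher and 82 lower genes, with a stricter filter 8 and 13, by DESeq2 15 and 0 (200 and 172 unadjusted), by limma voom with quality weights 4 and 0 (57 and 700), and with only the 11 esophagus and colon libraries 12 and 4. With mouse as a block the counts were 2 and 2 (fixed term), 0 and 0 (fixed term, mice 5 to 8 only) and 1 and 2 (random term in limma voom). Sex or cage as a covariate gave 7 and 4, F mice alone 2 and 0 (47 and 33 unadjusted), and M mice alone 0 and 0 (37 and 129). Leaving out esophagus of mice 1 and 3 with colon of mouse 8 gave 3 and 0, and leaving out esophagus of mice 3 and 5 gave 0 and 0 (107 and 242 unadjusted). Leaving out colon of mouse 8 and the bone marrow libraries, chosen after seeing the data, gave 7 and 1. Leaving out single libraries gave 1 to 14 higher and 0 to 22 lower genes. The 3 interaction genes became 0 with the stricter filter and 0 with library size alone.

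Of the called genes, Cd74 kept its call in 12 of 17 alternatives and H2-Ab1 in 12 of 17, Actb in 9 of 17, Rn18s in 8 of 17, H2-Ea in 8 of 15, Gm15772 in 7 of 14, S100a4 in 6 of 12, Btbd35f11 in 5 of 12 and Tmem30b in 4 of 11 that tested them. None of the 9 changed direction in those alternatives. Rps9 changed direction, at 0.34 with voom quality weights, 0.35 with the mouse block in mice 5 to 8, 1.68 in F mice, 1.49 with esophagus of mice 1 and 3 and colon of mouse 8 left out, and 1.36 when colon of mouse 8 and the bone marrow libraries were left out. Leaving out single libraries gave Rps9 -3.06 to 1.36. Des changed direction to -0.23 with mouse as a fixed block. The causes were not tested.

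Paired within mice 5 to 8, the difference in the ribosomal protein share was -0.0513 percentage points and in the share of the 100 most counted genes -1.06. For genes detected it was -6007 and for total counts -300100, where the exact sign-flip test cannot go below 0.125. Leaving out single libraries gave -7827 to -6151 genes detected, -375000 to -246600 total counts, and, in percentage points, -1.74 to 0.662 for mitochondrial, -0.0472 to 0.319 for ribosomal protein and -0.0468 to 3.07 for the most counted genes. A gene with no count can still lie at 35.99 CPM in esophagus of mouse 5, the highest such limit of the 11 libraries.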

Other observations

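Several genes outside the naming rule were called when the set of libraries changed, and they were chosen here after their values were seen. Malat1, a nuclear noncoding RNA, had 144 to 972 CPM in esophagus and 95.5 to 177 CPM in colon, and was higher in esophagus in the fit of the 11 esophagus and colon libraries (log2 fold change 1.98, SE 0.46, edgeR adjusted p = 0.0239). In that fit Sh3bgrl, Ghitm and Nus1 were lower in esophagus, at 0 to 182 CPM there, against 1534, 1771 and 1208 CPM in colon of mouse 8 and 13.7 to 137 CPM in the other colon libraries.

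Without colon of mouse 8, Ankra2, an ankyrin repeat protein gene, was higher in esophagus, with 207 to 4284 CPM there against 431, 222 and 210 CPM in colon of mice 5, 6 and 7 (2.77, SE 0.61, edgeR adjusted p = 0.0328). Gm13102 had 0 counts in all 7 esophagus libraries and in colon of mouse 8, against 63.7, 57.0 and 70.9 CPM in colon of mice 5, 6 and 7. Btbd35f11 had the same pattern of libraries with and without counts. Pramel50, of a multicopy family, had 0 to 585 CPM in esophagus, 115 CPM in colon of mouse 8 and 0 in the other colon libraries.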
